A study of Mus musculus with 9 samples.

Results

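The unfolded protein response and the ATF4 program were followed through 32 genes in mouse neutrophils held in gels of 3 stiffnesses. The genes are 6 sensors and transcription factors, 13 chaperones and folding enzymes of the endoplasmic reticulum (ER), 4 genes of ER-associated degradation, 4 stress targets of ATF4 and 5 amino acid and one-carbon enzymes. They were chosen by symbol, all 32 were found among the 22173 genes of the files, and all 32 passed the low-count filter, which left 12094 tested genes. In each library they took 0.526% to 0.683% of the counts.

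The cells were wild-type primary neutrophils from mouse bone marrow. They were encapsulated in GelMA, a methacrylated gelatin hydrogel of adjustable stiffness, and cultured there for 2 days, in every group in RPMI with 10% serum from fetal calves. The elastic modulus was 1.5 kPa in low gels, which were the control, 2.6 kPa in middle gels and 5.7 kPa in high gels, with 3 libraries numbered 1 to 3 in each group. Every group had been in a gel, and none in suspension is used here. RNA was sequenced as poly(A) libraries. The labels do not say whether the 3 replicates were separate animals or cultures, nor give the age of the mice or the purity of the cells, so a p-value here reflects no more than the spread among libraries, part of which may be technical.

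When unfolded proteins build up in the ER, 3 membrane sensors respond: PERK (Eif2ak3), IRE1 (Ern1) and ATF6 (Atf6). IRE1 splices Xbp1 mRNA, and XBP1 and ATF6 act mostly on chaperone and degradation genes. PERK, like the kinases that sense amino acid shortage, phosphorylates eIF2α, which raises translation of ATF4. ATF4 drives amino acid supply genes and, with CHOP (Ddit3), stress genes such as Trib3 and Chac1. XBP1 is known to be needed for the development of eosinophils and plasma cells. Counts per gene show neither the splicing of Xbp1 nor the translation of Atf4.

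Promoters of some of these genes hold letters of the sequence elements known for both arms, and a few are shown before the values, each on the strand of its gene. RefSeq windows on GRCm38.p6, from 250 bases before to 50 bases after a start site, were found for 29 of the 32 genes (the files use GRCm39). They were searched on both strands. The ER stress element is CCAAT and CCACG separated by 9 bases. The related element II is ATTGG and CCACG with 1 base between them, and the CCAAT-enhancer-binding protein and ATF response element (CARE) core is TGATGNAA. Capitals mark the whole match, spacer included. The first 4 stretches show the ER stress element in chaperone genes that moved in opposite directions between replicate numbers, Herpud1 shows both a CARE core and element II, and Asns and Chac1 show the CARE core alone.
Hspa5, chr2:34772015-34772053, plus strand: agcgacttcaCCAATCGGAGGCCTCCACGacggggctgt
Calr, chr8:84847065-84847103, minus strand: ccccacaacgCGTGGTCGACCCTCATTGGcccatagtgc
Canx, chr11:50325790-50325828, minus strand: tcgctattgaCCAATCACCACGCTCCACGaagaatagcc
Dnajc3, chr14:118937817-118937855, plus strand: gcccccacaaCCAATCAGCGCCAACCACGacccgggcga
Herpud1, chr8:94386307-94386397, plus strand: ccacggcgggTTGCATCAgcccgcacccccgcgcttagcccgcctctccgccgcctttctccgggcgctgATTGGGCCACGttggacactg
Asns, chr6:7693215-7693242, minus strand: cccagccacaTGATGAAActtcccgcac
Chac1, chr2:119351039-119351066, plus strand: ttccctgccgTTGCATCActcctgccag

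The Calr match, the CARE match of Herpud1 and that of Chac1 lie on the opposite strand and are printed as their reverse complement. The ER stress element was in 8 of the 29 genes (27.6%), against 39 of all 32851 windows (0.119%). Of the 8, 7 were among the 11 chaperone genes with a window (Hspa5, Hsp90b1, Canx, Calr, Pdia6, Dnajc3 and Creld2) and 1 was Syvn1. Element II was in Herpud1, against 0.0365% of all windows. The CARE core was in Asns, Chac1, Trib3 and Herpud1 (13.8% of the 29 genes), against 3.97% of all windows. The shorter CCACG, which also lies inside the first 2 elements, was in 79.3% of the genes and 32.8% of all windows, and TGACGTGG, the core of the XBP1 element, was in 0 of the 29 genes and 0.676% of all windows. These are matches of letters and show no binding.

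Library totals ran from 13.2 M to 19.5 M counts. Replicate 1 of every group stood apart from replicates 2 and 3, so each stiffness result below comes from an edgeR quasi-likelihood fit with the replicate number as a block, with the result of the fit without it beside it. "Rose" and "fell" mean a Benjamini-Hochberg adjusted p under 0.05 over all 12094 genes in the blocked fit, and values with ± are log2 fold changes with their standard error (n = 3 libraries per group). CPM are read counts after TMM normalisation, put on one library size. Neutrophil markers such as S100a8 and Csf3r were present in every library. So were macrophage markers such as Gpnmb and Adgre1, and B and plasma cell markers such as Cd79a and Jchain. Of that list only Tnfrsf17 had 0 counts in any library (8 of the 9). In bulk RNA, fewer cells of a type and less RNA per cell cannot be told apart.

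Per kilobase of gene, Atf4 had the highest level of the 32 genes, at 401 CPM per kb over all libraries. Calr (299 CPM per kb), a lectin chaperone, and Hspa5 (273 CPM per kb), which encodes the main ER chaperone BiP, followed. Psat1 had the lowest, at 2.11 CPM per kb, below Phgdh (2.97) and Chac1 (5.28). Phgdh and Psat1 encode the first enzymes of serine synthesis. Of the amino acid genes Asns was highest, at 26.3 CPM per kb.

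Between high and low gels, Atf4, Hspa5, Trib3 and Asns rose while Ddit3 and Psat1 fell. These are 6 of the 32 genes (18.8%), in a comparison that called 15.5% of all tested genes, so the share is near the background and is no result about the set. The 4 that rose compare with 6.72% of all tested genes higher, and the 2 that fell with 8.73% lower. The median over the 32 genes was 0.11 and that over all tested genes 0.00. The difference was positive for 24 of the 32, beside 6006 of all 12094 tested genes. Without the block edgeR called 0 of the 32 genes, with 0.091% of all tested genes called. Of the 32, 1 had an unadjusted p under 0.05 and DESeq2 called 0, beside 934 and 333 of all 12094 tested genes. DESeq2 with the block called 5 of the 6, all but Psat1. The block itself is read from the libraries, since the labels do not say what a replicate number shares.

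**Figure D1:**
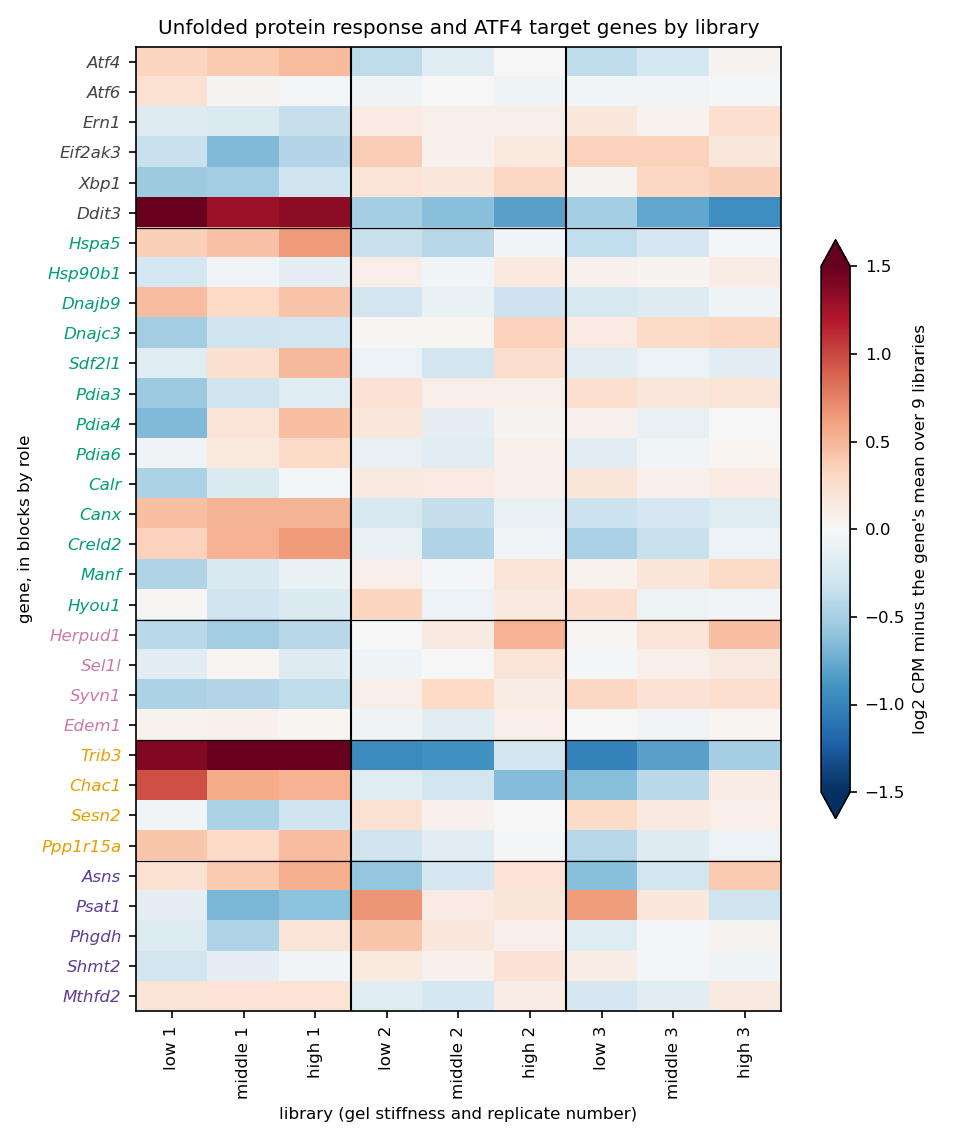
Level of the 32 genes in the 9 libraries, as log2 CPM minus the gene's mean over all libraries (colour), with genes in rows by role and libraries in columns by replicate number and then stiffness. Trib3 and Ddit3 were far above their mean in the 3 replicate 1 libraries, whatever the gel, while the steps from low to high within a replicate number were smaller.

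Among the transcription factors, Atf4, the central factor of the integrated stress response, was at 848, 521 and 519 CPM in replicates 1, 2 and 3 of low gels. It was at 888, 596 and 566 CPM in middle gels and at 939.9, 675 and 695 CPM in high gels. The groups overlapped, but within each replicate number the level was highest in the high gel. The difference of high from low was 0.31 ± 0.09 (adjusted p = 0.0338, and 0.954 without the block).

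Ddit3, which encodes the pro-apoptotic factor CHOP and is itself an ATF4 target, went the other way. It was at 296, 72 and 71.4 CPM in low, 248, 65.7 and 59.1 CPM in middle and 257, 57.7 and 53.3 CPM in high gels. Replicate 1 was several-fold above the others in every gel, and the low gel had the highest value within each number. The fall in high relative to low was -0.31 ± 0.08 (adjusted p = 0.0259, and 0.994 without the block).

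Xbp1 was at 77.3, 128 and 115 CPM in low, 77.9, 125 and 139 CPM in middle and 90.7, 139 and 143 CPM in high gels. It was higher in high than in low gels in all 3 replicate numbers, but the difference of 0.22 ± 0.08 did not pass (adjusted p = 0.0952). The sensors Ern1 (-0.02 ± 0.09), Atf6 (-0.08 ± 0.08) and Eif2ak3 (-0.17 ± 0.10) did not pass either. Of the 6 sensors and factors, 1 rose and 1 fell, with a median of -0.05.

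Of the 13 chaperones and folding enzymes, 12 had a positive difference of high from low, beside 6006 of all 12094 tested genes. For Pdia3, Pdia4 and Calr it was positive in replicate 1 alone (0.37, 1.1 and 0.45 in log2 CPM). In replicates 2 and 3 without replicate 1 they were at -0.09, -0.1 and -0.06. The median over the 13 in all libraries was 0.22, and Hspa5 alone passed. BiP, its product, binds nascent chains and holds the sensors inactive. Hspa5 was at 885, 547 and 536 CPM in low, 938, 519 and 582 CPM in middle and 1078, 673 and 675 CPM in high gels. High was above low by 0.29, 0.30 and 0.33 (log2 CPM) in replicates 1, 2 and 3, the most even step of the 6 called genes. The fitted rise was 0.31 ± 0.08 (adjusted p = 0.0319, and 0.969 without the block).

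Hyou1, which encodes a nucleotide exchange factor of BiP, was the 1 chaperone gene that was lower in high than in low gels. It was at 172, 212 and 201 CPM in low, 138, 159 and 161 CPM in middle and 146, 186 and 165 CPM in high gels. Middle and low gels did not overlap. Hyou1 fell in middle relative to low gels by 0.35 on the log2 scale (SE 0.08, adjusted p = 0.0422, and 1 without the block). In high relative to low gels the value of -0.24 ± 0.08 did not pass (adjusted p = 0.0585). The call in middle gels was lost when any 1 of 7 libraries was left out, all but high replicate 1 and low replicate 1.

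The other chaperone genes did not pass in high relative to low gels. The BiP co-chaperone gene Dnajc3 (0.25 ± 0.09, adjusted p = 0.0672) and the disulfide isomerase gene Pdia6 (0.24 ± 0.08, adjusted p = 0.0703) were closest to the threshold. Creld2 (0.25 ± 0.12) and the secreted factor Manf (0.22 ± 0.09), like Dnajc3 and Pdia6, were higher in high gels in all 3 replicate numbers. Sdf2l1 (0.34 ± 0.15) and Pdia4 (0.26 ± 0.26) had larger but less even differences. Hsp90b1 (GRP94), Dnajb9, Pdia3, Calr and Canx (calnexin, the membrane-bound partner of Calr) were between 0.03 and 0.11.

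ER-associated degradation returns misfolded proteins to the cytosol for the proteasome. Of its 4 genes, 0 passed by edgeR (1 at an unadjusted p under 0.05 and 0 by DESeq2). Over all 12094 tested genes 3722 had such a p and DESeq2 called 1896. Herpud1, which scaffolds the ubiquitin ligase complex, had the largest difference of high from low, 0.32 ± 0.10 (adjusted p = 0.0563). It was at 43.5, 57.1 and 58.9 CPM in low, 40.2, 63.2 and 66.0 CPM in middle and 43.2, 82.9 and 78.7 CPM in high gels. Replicate 1 thus hardly differed between gels, while replicates 2 and 3 were higher in high gels. The ligase gene Syvn1 (0.02 ± 0.09), its partner Sel1l (0.13 ± 0.09) and the lectin Edem1 (0.05 ± 0.08) were near 0.

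The 4 ATF4 stress targets did not move as one. Trib3, a pseudokinase that dampens ATF4 and CHOP activity, was at 103, 20.3 and 19.5 CPM in low, 119, 21.0 and 22.4 CPM in middle and 112, 32.6 and 27.8 CPM in high gels. High was above low by 0.12, 0.68 and 0.51 (log2 CPM) in replicates 1, 2 and 3. The fitted rise was 0.43 ± 0.12 (adjusted p = 0.0383, and 0.994 without the block).

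Chac1, which encodes a glutathione-degrading enzyme, was at 15, 6.77 and 4.94 CPM in low, 11.3, 6.35 and 5.81 CPM in middle and 11.1, 4.92 and 8.29 CPM in high gels. High was below low in replicates 1 and 2 and above it in replicate 3, and the difference was -0.07 ± 0.23 (adjusted p = 0.873). Ppp1r15a, whose product GADD34 reverses the phosphorylation of eIF2α, had a difference of 0.22 ± 0.09 (adjusted p = 0.113). Sesn2, an inhibitor of mTORC1, had one of -0.22 ± 0.08 (adjusted p = 0.104).

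The amino acid and one-carbon enzymes held both the largest rise and the largest fall of the 32 genes. Asns, the asparagine synthetase gene and a standard readout of ATF4, was at 70.1, 39.9 and 38.5 CPM in low, 78.5, 50.2 and 48.7 CPM in middle and 86.4, 68.5 and 78.4 CPM in high gels. Each step in stiffness was upward within each replicate number, and of the low libraries only replicate 1 lay above the lowest high library. The rise in high relative to low was 0.70 ± 0.12 (adjusted p = 0.00353, and 0.637 without the block), a fold of 1.63. Asns in middle relative to low gels was 0.27 ± 0.12 (adjusted p = 0.328).

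Psat1, which encodes phosphoserine aminotransferase, was at 4.52, 7.91 and 7.72 CPM in low, 3.11, 5.43 and 5.60 CPM in middle and 3.27, 5.66 and 4.08 CPM in high gels. Low was highest within each replicate number. The fall in high relative to low was -0.62 ± 0.19 (adjusted p = 0.0458, and 0.777 without the block), on 42 to 146 counts per library. Phgdh, the preceding enzyme of the same pathway, differed by 0.08 ± 0.20 (adjusted p = 0.828). Some of its reads may belong to the pseudogene Phgdh-ps1. The mitochondrial folate enzymes Mthfd2 (0.23 ± 0.10, adjusted p = 0.121) and Shmt2 (0.04 ± 0.11) did not pass.

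**Figure D2:**
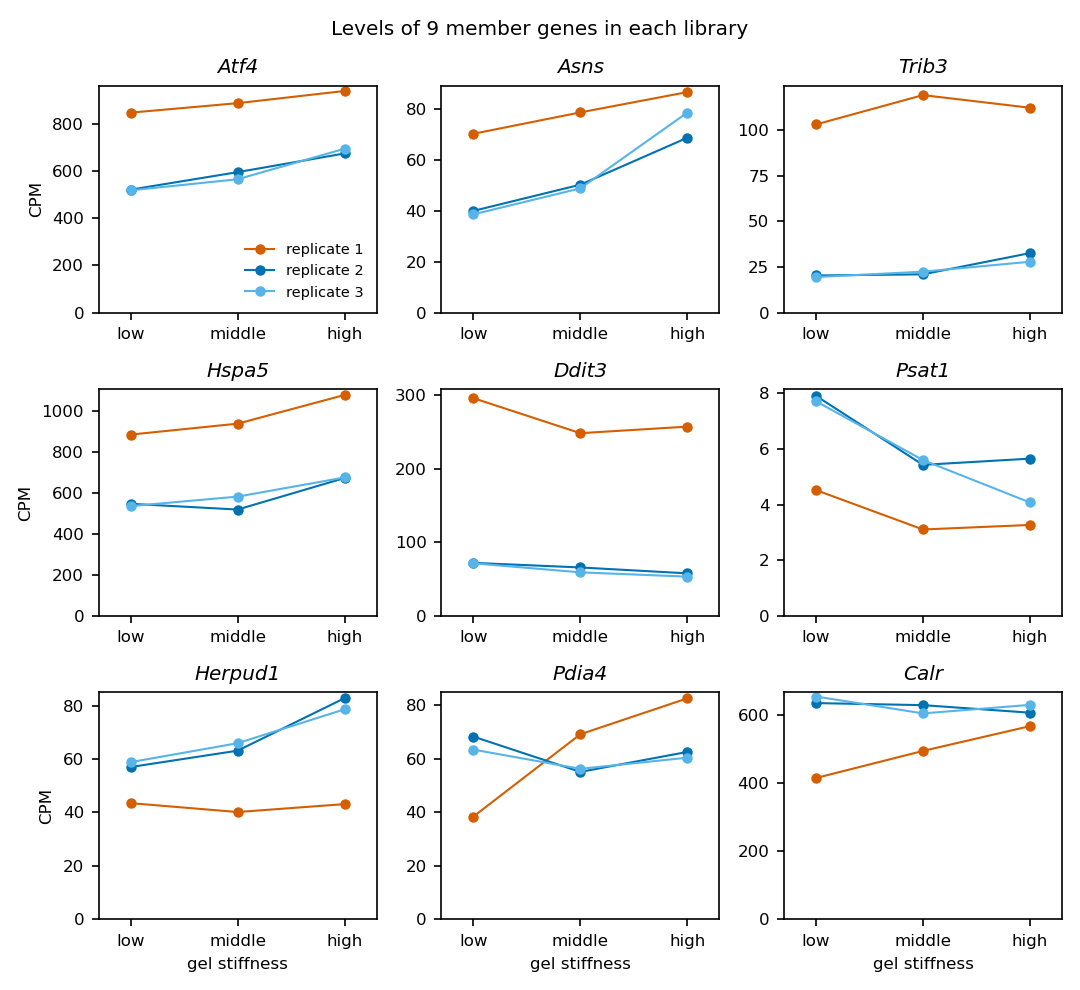
CPM of 9 of the genes by gel stiffness (low, middle and high on the horizontal axis), with 1 line per replicate number and vertical axes from 0. Atf4, Asns and Hspa5 were highest in the high gel in every replicate number, and Trib3 and Ddit3 of replicate 1 lay far above replicates 2 and 3.

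Asns alone of the 6 genes kept its call whenever any 1 library was left out. The count fell to 1 gene without high replicate 2, high replicate 3, middle replicate 3, low replicate 2 or low replicate 3, and was 8 without high replicate 1. In the direction of the difference, 13 of the 32 genes were higher in high than in low gels in all 3 replicate numbers, 5 were lower in all 3 and 14 were mixed. The 5 were Ddit3, Psat1, Hyou1, Sesn2 and Eif2ak3. Over all tested genes, 48.5% moved the same way in all 3 numbers.

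Markers of cell identity also differed between high and low gels in the same fit, which called 6.72% of all tested genes higher and 8.73% lower. Of 13 macrophage markers, 3 rose and 6 fell, and their summed level was 5417 to 8459 CPM in high and 8702 to 9105 CPM in low gels. Gpnmb weighed most in the low sums, with 75719, 61892 and 56721 counts in replicates 1, 2 and 3, against 64832, 24950 and 17997 in high gels. Csf1r went the other way, from 8175, 19093 and 16454 counts in low to 10945, 30263 and 24812 in high gels. Of 14 neutrophil markers, 2 rose and 4 fell (5781 to 19883 CPM in high and 4216 to 26790 CPM in low gels). Of 6 progenitor markers 3 fell (18.5 to 75.4 CPM in high and 43.7 to 184 CPM in low gels). Of 10 cell cycle markers 6 fell (358 to 389 CPM in high and 343 to 512 CPM in low gels), and of 8 tested B and plasma cell markers 2 fell (45.2 to 203 CPM in high and 71.2 to 261 CPM in low gels). Their part in the changes of the stress genes was not tested.

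Few genes were called between middle and low gels, where Hyou1 fell and the other 31 genes did not pass. This is 1 of 32 in a comparison that called 1.84% of all tested genes. Fewer still, 0.0165% of all tested genes, were called between high and middle gels. Calls thus do not place middle gels nearer to low than to high gels. Between middle and low gels without the block, edgeR called 0 of the 32 and 0% of all tested genes. Of the 32, 1 had an unadjusted p under 0.05 and DESeq2 called 0, beside 318 and 48 of all 12094 tested genes. Ddit3 (-0.22 ± 0.08, adjusted p = 0.24), Psat1 (-0.51 ± 0.19, adjusted p = 0.23) and Sesn2 (-0.24 ± 0.08, adjusted p = 0.204) were the next nearest to the threshold. Atf4 differed by 0.13 ± 0.09 and Hspa5 by 0.04 ± 0.08, neither past it.

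Between high and middle gels 0 of the 32 genes passed by edgeR with the block, where 0.0165% of all tested genes were called. Of the 32, 5 had an unadjusted p under 0.05 and DESeq2 called 0, beside 1272 and 100 of all 12094 tested genes. Without the block edgeR also called 0 of the 32, with 0% of all tested genes called. Of the 32, 0 had an unadjusted p under 0.05 and DESeq2 called 0, beside 179 and 2 of all 12094 tested genes. With the block the difference was positive for 28 of the 32 genes and for all 13 chaperone genes, beside 5809 of all 12094 tested genes. The medians were 0.11 and 0.12, beside -0.01 over all tested genes. Asns (0.43 ± 0.12, adjusted p = 0.242) and Hspa5 (0.26 ± 0.08, adjusted p = 0.311) were nearest to the threshold.

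Chaperone and amino acid genes were set against each other as means of log2 CPM over the 13 and the 5 genes. The chaperone mean was above the amino acid mean by 2.92, 2.91 and 3.01 in replicates 1, 2 and 3 of low gels. It was above it by 3.20, 2.90 and 3.02 in middle gels and by 3.14, 2.91 and 2.99 in high gels. The gap was wider in the middle and high gels of replicate 1 than in its low gel and hardly differed between gels in replicates 2 and 3. Its mean change was 0.07 for high relative to low gels and 0.09 for middle relative to low gels, both smaller than the spread of 0.13 and 0.16 (SD over the 3 replicate numbers). The amino acid mean hid the opposite moves of Asns and Psat1.

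**Figure D3:**
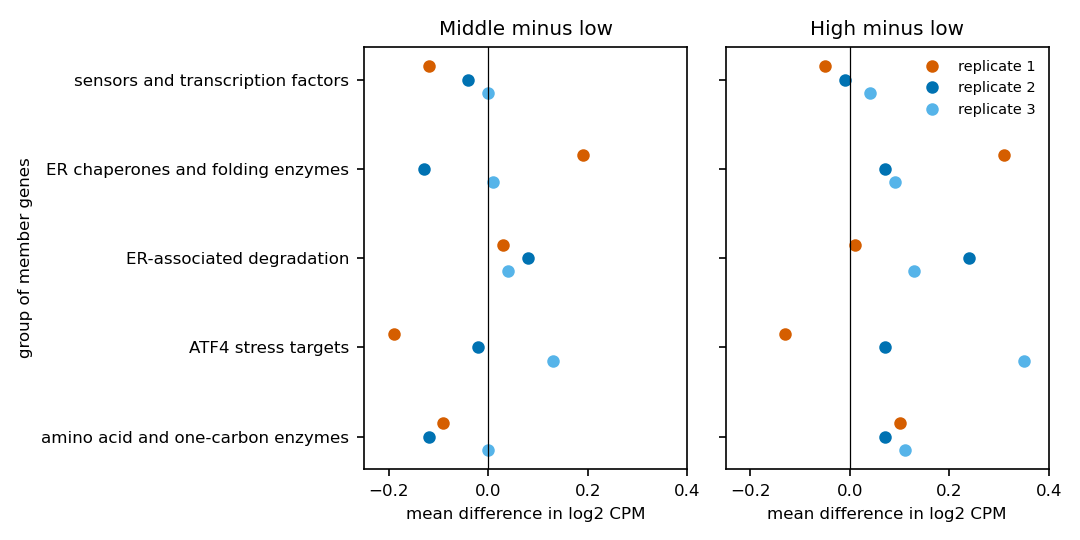
Mean difference in log2 CPM from the low library of the same replicate number, for the 5 groups of genes (vertical axis), in the middle gel (left panel) and the high gel (right panel), with 1 point per replicate number. In the high gel the chaperone mean of replicate 1 was 0.31 above its low library, against 0.07 and 0.09 in replicates 2 and 3.

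The change in high relative to low gels differed between replicate 1 and replicates 2 and 3 for 4 of the 32 genes, tested as an interaction that called 8.36% of all tested genes. For Pdia4, Calr and Pdia3 it was higher in replicate 1, 3 of the 32 beside 2.52% of all tested genes. For Asns it was lower, 1 of the 32 beside 5.84%. The interaction has 3 residual degrees of freedom, which come from replicates 2 and 3, and the single replicate 1 library of each gel is assumed to vary like them.

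Pdia4, a disulfide isomerase gene, was at 82.6 CPM in high, 69.2 in middle and 38.4 in low replicate 1. In replicates 2 and 3 it was at 62.6 and 60.4 CPM in high, 55.1 and 56.2 in middle and 68.3 and 63.4 in low gels. The change in replicate 1 exceeded that in replicates 2 and 3 by 1.21 ± 0.14 on the log2 scale (adjusted p = 0.000412). Calr was at 567 CPM in high and 415 CPM in low replicate 1, and at 607 and 630 CPM in high and 635 and 654 CPM in low replicates 2 and 3, a difference in change of 0.51 ± 0.12 (adjusted p = 0.0211).

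Pdia3, whose product works on glycoproteins held by calreticulin and calnexin, was at 302 CPM in high and 234 CPM in low replicate 1, and at 364 and 393 CPM in high and 398 and 408 CPM in low replicates 2 and 3. Its difference in change was 0.46 ± 0.12 (adjusted p = 0.0425). All 3 genes had their lowest value of the 9 in low replicate 1. For Asns the change was smaller in replicate 1, by -0.60 ± 0.15 (adjusted p = 0.0318), and it was upward in every replicate number. DESeq2 called Pdia4 and Calr, and leaving out single libraries gave 1 to 6 genes, Pdia4 each time. Leaving out low replicate 2, low replicate 3 or middle replicate 3 left 1, and leaving out middle replicate 2 left 2.

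The summed level of the neutrophil markers was higher in the high than in the low gel of replicate 1 (5781 CPM in high and 4216 CPM in low) and lower in replicates 2 and 3 (19224 and 19883 CPM in high and 26790 and 23846 CPM in low). Single markers went both ways in replicate 1. Lcn2 had 5565 counts in its low and 18204 in its high library, while Cxcr2 had 1474 and 687 and Csf3r 3953 and 3204. In the same interaction 7 of 14 neutrophil and 7 of 13 macrophage markers were higher and 1 of each was lower. Beside them stand 2.52% of all tested genes higher and 5.84% lower. Their part in the 4 differences was not tested.

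In replicates 2 and 3 alone, with 2 libraries per group and 12214 tested genes, the fit without a block was repeated. It called 10 of the 32 genes between high and low gels, beside 26.3% of all tested genes. The 7 that were higher were Asns (0.90 ± 0.09), Trib3 (0.60 ± 0.11), Herpud1 (0.48 ± 0.08), Atf4 (0.40 ± 0.07), Mthfd2 (0.34 ± 0.08), Ppp1r15a (0.31 ± 0.07) and Hspa5 (0.31 ± 0.07), beside 12.2% of all tested genes. The 3 that were lower were Psat1 (-0.68 ± 0.20), Ddit3 (-0.37 ± 0.09) and Hyou1 (-0.24 ± 0.08), beside 14% of all tested genes. Hspa5 was the 1 chaperone gene among the 7. With the replicate number as a block the same 6 libraries also called the chaperone gene Dnajc3 higher (0.26 ± 0.09, adjusted p = 0.0438), 11 genes in all, beside 26.1% of all tested genes. The choice of these 6 libraries was made with the split of replicate 1 known.

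The same 6 libraries set high above middle gels for 5 genes, Asns (0.57 ± 0.09), Trib3 (0.48 ± 0.11), Mthfd2 (0.34 ± 0.08), Herpud1 (0.32 ± 0.08) and Hspa5 (0.29 ± 0.07), beside 3.62% of all tested genes. In middle relative to low gels Hyou1 was lower (-0.37 ± 0.08), beside 3.3% of all tested genes. The differences of high from low and of high from middle share the same high libraries.

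The largest differences in the set were between replicate numbers, not between gels. With stiffness in the fit, 25 of the 32 genes (78.1%) differed between replicate 1 and the average of the other replicates, where 65.4% of all tested genes did. Of the 32, 12 were higher (32.9% of all tested genes) and 13 were lower (32.5%) in replicate 1. This split was seen over all genes before it was tested, so the p-values only set its size against the spread of the libraries. Between replicates 3 and 2 edgeR called 0 of the 32 genes and 0% of all tested genes. Of the 32, 0 had an unadjusted p under 0.05 and DESeq2 called 0, beside 150 and 0 of all 12094 tested genes.

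Ddit3 and the ATF4 stress targets Trib3 and Chac1 led the higher side. Trib3 was at 103 to 119 CPM in replicate 1 and 19.5 to 32.6 CPM in replicates 2 and 3, a difference of 2.24 ± 0.10 (adjusted p = 3.34e-08). Ddit3 was at 248 to 296 CPM against 53.3 to 72 CPM, a difference of 2.08 ± 0.07 (adjusted p = 6.07e-09). Chac1 followed with 11.1 to 15 CPM in replicate 1 against 4.92 to 8.29 CPM (1.01 ± 0.19, adjusted p = 0.00064). For these 3 genes the differences were several times those between high and low gels. Atf4 itself was higher by 0.59 ± 0.07, Ppp1r15a by 0.59 ± 0.08 and Asns by 0.58 ± 0.10, while Sesn2 was lower (-0.41 ± 0.08).

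Chaperone genes split. Creld2 (0.75 ± 0.10), Canx (0.73 ± 0.07), Hspa5 (0.72 ± 0.07), Dnajb9 (0.60 ± 0.08) and Pdia6 (0.19 ± 0.07) were higher in replicate 1. Dnajc3 (-0.56 ± 0.08), Pdia3 (-0.51 ± 0.09), Manf (-0.39 ± 0.08), Calr (-0.35 ± 0.09), Hyou1 (-0.25 ± 0.07) and Hsp90b1 (-0.22 ± 0.08) were lower. The calls of Pdia6 and Hsp90b1 were each lost in 7 of 13 alternative runs. Hspa5 was at 885 to 1078 CPM in replicate 1 and 519 to 675 CPM in replicates 2 and 3. Calnexin and calreticulin, paired chaperones of glycoproteins, thus lay on opposite sides.

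Of the 6 sensors and factors 2 were higher and 3 lower in replicate 1, and of the 4 degradation genes 2 were lower. Xbp1 was at 77.3 to 90.7 CPM in replicate 1 and 115 to 143 CPM in replicates 2 and 3 (-0.68 ± 0.07, adjusted p = 9.93e-06). Eif2ak3 (-0.72 ± 0.09) and Ern1 (-0.38 ± 0.08) were lower too. Herpud1 (-0.67 ± 0.09) and Syvn1 (-0.65 ± 0.08) were lower, whereas Sel1l (-0.17 ± 0.08, adjusted p = 0.0717) and Edem1 (0.07 ± 0.07) did not pass. Of the metabolic enzymes Mthfd2 was higher (0.30 ± 0.08), Psat1 was lower (-0.73 ± 0.17), and Phgdh (-0.23 ± 0.18) and Shmt2 (-0.22 ± 0.10) did not pass. Atf6 (0.12 ± 0.07), Sdf2l1 (0.28 ± 0.13) and Pdia4 (0.03 ± 0.22) make up the 7 genes that were not called.

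**Figure D4:**
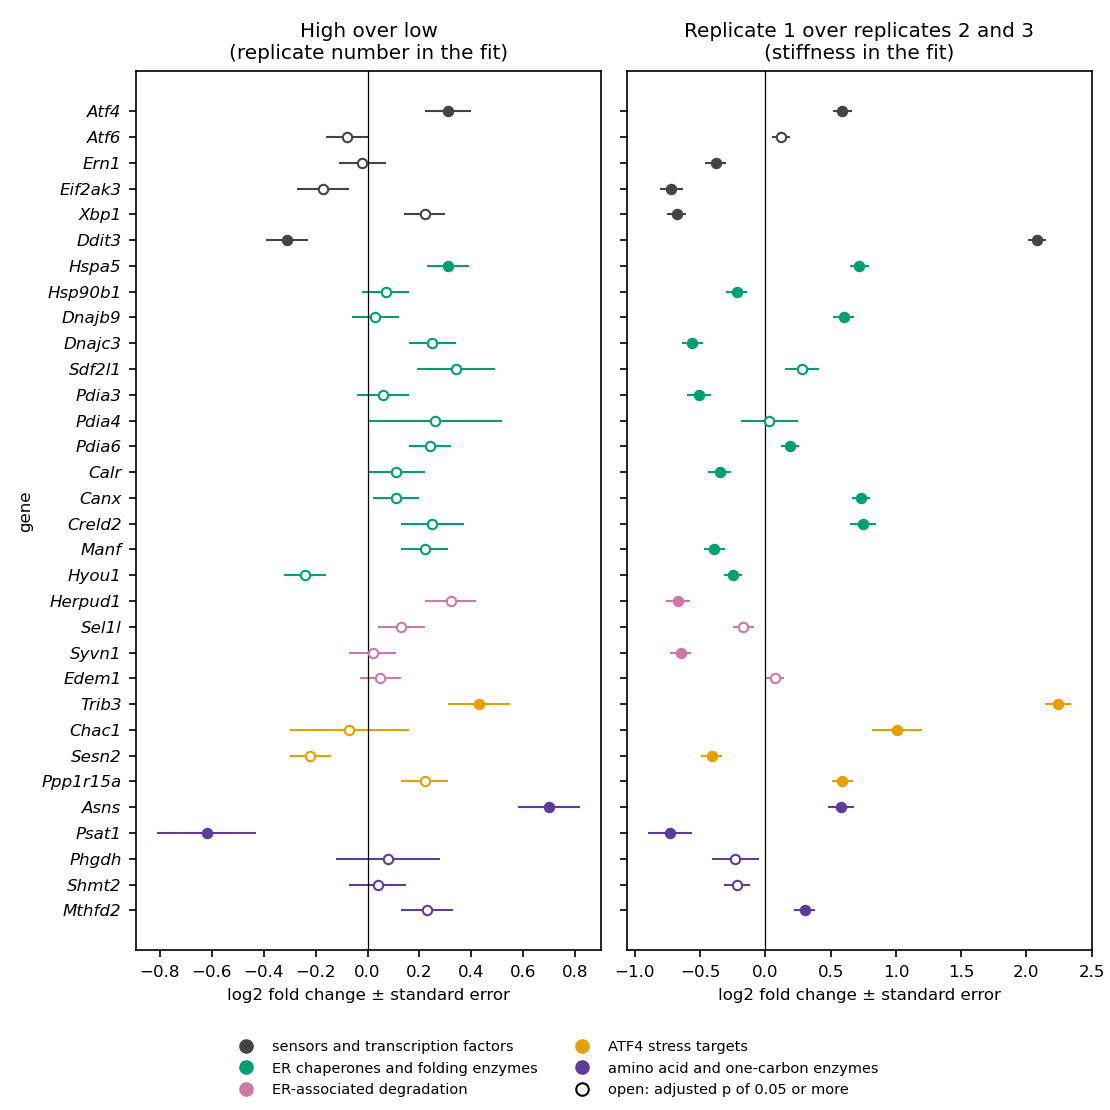
Log2 fold change with its standard error for each of the 32 genes, for high over low gels with the replicate number in the fit (left) and for replicate 1 over replicates 2 and 3 with stiffness in the fit (right), filled where the adjusted p is under 0.05. Trib3 (2.24) and Ddit3 (2.08) lie farthest out on the right, and Asns (0.70) and Psat1 (-0.62) on the left, where the horizontal scale is narrower.

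The 8 genes of the set with the ER stress element were called between replicate 1 and the others, beside 65.4% of all tested genes, 4 higher (Hspa5, Canx, Creld2 and Pdia6) and 4 lower (Calr, Dnajc3, Hsp90b1 and Syvn1). Of the 8, Pdia6 lost its call in 7 of 13 alternative runs, DESeq2 among them, and Hsp90b1 in 7 of 13. Outside the set, 7 tested genes had the element, and 1 of them (Xlr3b, lower) was called. In high relative to low gels 1 of the 8, Hspa5, was called, with a median of 0.17, beside 15.5% of all tested genes. The 7 tested genes outside the set had adjusted p-values of 0.349 to 0.883 there. Of the 4 genes with the CARE core, Asns, Chac1 and Trib3 were higher in replicate 1, and Herpud1, which also has element II, was lower, beside 32.9% of all tested genes higher and 32.5% lower. With 4 genes and that background, nothing is read from this about the motif. In high relative to low gels Asns and Trib3 rose, and Chac1 and Herpud1 did not pass.

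Markers of the cells moved with the replicate number, in a comparison that called 32.9% of all tested genes higher and 32.5% lower. Of 14 neutrophil markers 13 were lower and 0 higher in replicate 1, with a summed level of 4216 to 5781 CPM in replicate 1 and 19224 to 26790 CPM in replicates 2 and 3. Of 13 macrophage markers 4 were higher and 6 lower (7746 to 9105 CPM in replicate 1 and 5417 to 8990.4 CPM in the others). Gpnmb weighed most in the sums of replicate 1, with 64832 counts in its high library. C1qa went the other way, with 197 counts in high replicate 1 against 1262 and 953 in high replicates 2 and 3. All 8 tested B and plasma cell markers were lower (41.2 to 71.2 CPM against 137 to 269 CPM), as were 5 of 6 progenitor markers (14.4 to 43.7 CPM against 72.6 to 184 CPM). Of 10 cell cycle markers 9 were lower and Pcna was higher (328 to 358 CPM against 383 to 512 CPM). Pcna held most of these counts in replicate 1 (3834 in its high library, beside 606 for Mki67). The sum thus understates the fall of the 9. Their part in the differences of the stress genes was not tested.

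Further genes of both arms were counted as lists. Of 39 tested further genes of the unfolded protein response, 11 rose (28.2%) and 0 fell in high relative to low gels, beside 6.72% of all tested genes higher and 8.73% lower. Their median was 0.21, beside 0.00 over all tested genes. Among them were Ero1a (0.54 ± 0.10, adjusted p = 0.00507), the oxidase that recharges disulfide isomerases, and P4hb (0.46 ± 0.09, adjusted p = 0.00725), the classical disulfide isomerase. Uggt1, a folding sensor for glycoproteins, rose by 0.31 ± 0.08 and Sec61a1, the channel of protein import into the ER, by 0.30 ± 0.08. DESeq2 with the block called 8 of the 39, beside 1896 of all 12094 tested genes. The list was not counted in the runs with libraries left out. Without the block edgeR called 0 of the 39 (6 at an unadjusted p under 0.05 and 3 by DESeq2). Over all 12094 tested genes 934 had such a p and DESeq2 called 333. In replicate 1 against the others 14 were higher (35.9%) and 9 lower (23.1%). The 59% called was below the 65.4% of all tested genes, so this is no result about the list. Examples were Traf2 (1.09 ± 0.08), which couples IRE1 to kinase signalling, Ero1a (0.68 ± 0.08), Txndc5 (-1.05 ± 0.13) and Creb3l2 (-2.0 ± 0.23).

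Of 43 tested further genes of ATF4 and the integrated stress response, 9 rose (20.9%) and 2 fell (4.65%) in high relative to low gels, beside 6.72% of all tested genes higher and 8.73% lower, with a median of 0.08. The arginine and lysine transporter gene Slc7a1 (0.53 ± 0.10), the transcription factor gene Cebpb (0.45 ± 0.09) and Slc3a2 (0.41 ± 0.09), the heavy chain of amino acid exchangers, rose, and Crebrf (-0.67 ± 0.09) fell. DESeq2 with the block called 11 of the 43, beside 1896 of all 12094 tested genes. This list too was not counted in the runs with libraries left out. Without the block edgeR called 0 of the 43 (4 at an unadjusted p under 0.05 and 2 by DESeq2), beside 934 and 333 of all 12094 tested genes. Cebpb was the 1 gene of this list that rose in middle relative to low gels (0.39 ± 0.09, adjusted p = 0.0465). In replicate 1 against the others 27 were higher (62.8%) and 4 lower (9.3%), beside 32.9% and 32.5% of all tested genes, with a median of 0.51 beside 0.01. They included the stress factor Atf3 (1.50 ± 0.11), the transporter gene Slc38a2 (1.13 ± 0.08), the ATF4 partner Cebpg (0.98 ± 0.06) and the alanyl-tRNA synthetase gene Aars (0.83 ± 0.06).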

How the data were processed

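Poly(A) RNA was sequenced in 9 libraries, 3 per gel stiffness. Reads were processed with HISAT2 2.0.1, HTSeq 0.6.1, cutadapt 1.9.1 and DESeq2 against GRCm39, per the submitters' processing notes. Not given in the sources used here are their parameters, the use of strand in counting, the annotation release, and the instrument and date of each library. Each deposited file holds raw counts per gene, the authors' FPKM and an exonic gene size in bases, a column of another unit. The deposited FPKM equalled values recomputed from counts and sizes in 100% of genes, within 0.005, and were not used further.

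Counts were filtered with filterByExpr, normalised by TMM and tested with edgeR 4.0.16 (R 4.3.3; quasi-likelihood, robust, two-sided, Benjamini-Hochberg over 12094 genes, threshold 0.05) over all 9 libraries. A fit without a replicate term and a fit with the replicate number as a block were both run. After removal of group means, libraries with the same number correlated at 0.595 to 0.856, which met the condition for pairing. Replicates 2 and 3 of different groups correlated at 0.552 to 0.698, and replicate 1 with the others at -0.777 to -0.650, so the numbers 2 and 3 are not distinguished by this. Replicates 2 and 3 of a group differed beyond counting noise (chi-square per degree of freedom 5.22 to 11.8). The biological coefficient of variation was 0.337 without and 0.115 with the block. The interaction fit had 6 means and the block was replaced by replicate 1 against the others. Log2 CPM used a prior count of 2.

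The members, gene lists and tests were chosen with earlier results of these data known. Named in full are the members called in any stiffness comparison, and Hspa5, Ddit3, Atf4, Xbp1, Asns, Chac1 and Trib3. Of the further lists, up to 4 called genes with the smallest adjusted p per comparison are named. Other values per library are given where a test between replicate numbers turned on them. Promoter sequences are from RefSeq (GRCm38.p6). Protein sequences were not analysed here. Alternatives were RLE size factors, DESeq2 1.42.0, no low-count filter or at least 5 CPM in 3 libraries, and leaving out each library or replicate number. The method was tested on simulated data. Figures were drawn with matplotlib 3.10.9.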

Additional observations from a re-analysis of the deposited data

Results flagged for a closer look

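The change in high relative to low gels differed between replicate 1 and replicates 2 and 3 for 4 genes, by an interaction term in edgeR. The log2 difference in change was 1.21 for Pdia4, 0.51 for Calr, 0.46 for Pdia3 and -0.60 for Asns. High was above low in replicate 1 by 1.10 for Pdia4, 0.45 for Calr and 0.37 for Pdia3 (log2 CPM). In replicates 2 and 3 the values were -0.13 and -0.07 for Pdia4, -0.07 and -0.06 for Calr, and -0.13 and -0.05 for Pdia3. Asns was above low in all 3, by 0.30 in replicate 1 and by 0.78 and 1.02 in replicates 2 and 3. Each gel has a single replicate 1 library, and low replicate 1 had the lowest of all 9 values for Pdia4, Calr and Pdia3. DESeq2 called Pdia4 and Calr, with adjusted p = 1.4e-06 and 0.0128, but neither Pdia3 (0.0547) nor Asns (0.0965).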

How the results depend on the processing

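No call of the set reversed its direction under any alternative run. The fit with the block called 6, 1 and 0 of the 32 genes (1869, 222 and 2 of all tested genes) for high against low, middle against low and high against middle, and the fit without it 0, 0 and 0 (11, 0 and 0). Leaving out replicate 1 gave 10, 1 and 5 of the 32 without the block (3207, 784 and 840 genes) and 11, 1 and 5 with it (3183, 825 and 900 genes). Leaving out replicate 2 or 3 with the block gave 0 of the 32 for high against low (262 and 435 genes) and for middle against low (6 and 22 genes), and 0 genes for high against middle without replicate 2. Leaving out single libraries with the block gave 1 to 8 of the 32 for high against low (605 to 2469 genes), 0 to 1 for middle against low (27 to 661 genes) and 0 to 2 for high against middle (0 to 301 genes), and without the block 0 of the 32 (0 to 41 genes for high against low). The fall of Hyou1 in middle gels lost its call without any of the 7 libraries other than high replicate 1 and low replicate 1. DESeq2 called 333, 48 and 2 genes without the block, and 466 and 100 for middle against low and high against middle with it. With no low-count filter the block fit called 340 and 40 genes in these 2 comparisons, and RLE size factors and the filter at 5 CPM called 1 and 0 for high against middle. For the interaction DESeq2 called 2 of the 32, single libraries left out gave 1 to 6 (514 to 1603 genes), and no filter gave 1556 genes. Psat1 was not called by DESeq2 (adjusted p = 0.0778) or without the low-count filter. Of replicate 1 against the others 23 to 26 of the 32 were called without single libraries (6766 to 7898 genes). The gap of chaperone to amino acid genes moved by less than its spread under each alternative. The causes of these shifts were not tested. Low counts limit Psat1, Phgdh and Chac1 most.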
